A study of Mus musculus with 6 samples.

Results

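Oxidative phosphorylation is carried out in the inner mitochondrial membrane by a chain of large protein complexes. Complex I (NADH dehydrogenase) and complex II (succinate dehydrogenase) pass electrons to ubiquinone, complex III hands them to cytochrome c, complex IV (cytochrome c oxidase) passes them to oxygen, and complex V (ATP synthase) uses the resulting proton gradient to make ATP. Most subunits are encoded in the nucleus and a small set in mitochondrial DNA, and neurons draw heavily on this pathway. The genes described here are the nuclear ones whose array name starts with Nduf, Uqcr, Atp5, Cox4i, Cox5, Cox6, Cox7 or Cox8, or is Sdha, Sdhb, Sdhc, Sdhd, Cyc1 or Cycs. The rule used names and detection only, and no difference between groups. Of 147 such probes among the 56605 on the array, 139 were well above background on all 6 arrays, the scanner software's own flag for a spot brighter than its surroundings. They stand for 93 of 94 gene names: 36 of complex I, 4 of complex II, 9 of complex III, Cycs, 16 of complex IV, 15 of complex V and 12 assembly factors or related proteins. The 1 name without such a probe was Cox8c, and the other 7 dim probes belonged to genes with a brighter probe. Nearest to the threshold from outside were second probes of Ndufaf6 and Ndufs3, well above background on all 3 vehicle arrays but on 2 and 1 of the GSK-J4 arrays.

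The arrays were 1-colour Agilent expression arrays of hypothalamic RNA from male C57BL/6J mice with diet-induced obesity (DIO mice), fed a diet with 60% of its energy from fat. Of the 6 mice, 3 received GSK-J4, an inhibitor of the Kdm6 histone demethylases, at 30 mg/kg, and 3 received vehicle, dose 0, with tissue taken at 4 d according to the deposited design. Both groups shared the diet, the strain and the sex. GSK-J4 was given to the whole animal and the whole hypothalamus was profiled, so that a lower number of cells of a type and less RNA per cell cannot be told apart. Each array came from a different mouse.

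Treatment cannot be told apart from slide and scan, because the 3 vehicle arrays lay on one slide in one scan and the 3 GSK-J4 arrays on another. The 75th percentile of raw signal was 787 to 916 on vehicle arrays and 406 to 461 on GSK-J4 arrays, and 62.8% to 63.6% against 57.7% to 58.7% of probes were well above background. Of the 147 member probes, 141 or 142 were well above background on each vehicle array and 140 on each GSK-J4 array, and none was saturated. Of 15 marker genes of hypothalamic neurons, 11 were kept, Sst, Npy, Cartpt, Crh and Pomc among them. Avp, Pmch, Sim1 and Trh were not well above background throughout either group. Of the 11, 10 were above 0 (GSK-J4 over vehicle), with a median of 0.41 (log2), 6 without overlap upward and 2 past the adjusted threshold, and summed linear signals of 40077 to 46307 with vehicle and 46178 to 47052 with GSK-J4. All 7 microglia markers were kept, with 6 above 0, a median of 0.30, 5 without overlap upward and 2 past the threshold (C1qa and C1qb), and sums of 19739 to 21618 with vehicle and 12357 to 26911 with GSK-J4. Among all genes tested, 25.5% did not overlap upward and 9% rose past the threshold. All 9 markers of neurons in general were kept, with 6 above 0, a median of 0.07, 1 without overlap upward and 2 downward. Of these 0 rose and 1 fell past the threshold, against 7.77% of all genes that fell. Their sums were 260809 to 266859 with vehicle and 245705 to 280415 with GSK-J4. The part of the neuron and microglia markers in the members' values was not tested. All 8 choroid plexus markers, Ttr included, were kept, and their summed linear signal was 115139 on vehicle replicate 1 against 3360 and 3563 on the other vehicle arrays and 3121 to 12750 on the GSK-J4 arrays. On that array 6 members lay more than 0.5 (log2) from both other vehicle arrays, 3 above (Cox8b, Cox7a1 and Cox6b2) and 3 below (Cox8a, Cox7b2 and Ndufv2), against 0 and 1 on the other vehicle arrays and 1 to 3 on the GSK-J4 arrays.

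The first question was whether the subunits differed between GSK-J4 and vehicle, and in which complexes. With quantile-normalised log2 signals, 7 of 93 genes rose and 0 fell at an adjusted p of at most 0.05 (limma), against 9% and 7.77% of all 22117 genes tested. The 7 were Ndufs6, Ndufa3 and Ndufa2 of complex I, Cox6a2 and Cox7c of complex IV, Atp5d of complex V and the assembly factor Ndufaf3. The share that rose, 7.53%, was no higher than among all genes in this fit, and the comparison went both ways across settings. After 75th percentile scaling 73.1% of members and 18.8% of all genes rose. The shares were 20.4% and 10.6% with a moderated test with trend and robust settings, and 12.9% and 6.39% with the methods' t-test with equal variance. Members stayed lower with the G and C share of the probe removed (1.08% and 4.62%) and with no filter (2.15% and 3.24%). So they did with the mean of a gene's probes (5.38% and 8.42%) and with probes above background on all arrays (10.8% and 11.3%). The calls were not stable to the loss of an array. Without any 1 of the 3 vehicle arrays 0 members passed, and of all genes at most 0.0859% rose. Without any 1 of the GSK-J4 arrays 1 member did (1.08%), against 3% to 6.25% of all genes. Without adjustment of p, 30 genes were higher and 4 were lower at the same threshold, against 20.6% and 15.9% of all genes. Only Cox6a2 passed the study's own thresholds of 1.5-fold and unadjusted p of at most 0.05 upward and 0 passed downward, against 4.84% and 6.39% of all genes. The changes were small, with 90 of 93 genes within 1.5-fold in either direction.

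Small differences were mostly of one sign. The log2 fold change was above 0 in 67 of 93 genes (72% against 54.2% of all genes), with a median of 0.15 against 0.04. In 43 genes (46.2%) all GSK-J4 arrays lay above all vehicle arrays, against 25.5% of all genes. In 10 genes all GSK-J4 arrays lay below, against 20% of all genes. The genes share samples and are not independent, and these counts are a description.

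**Figure D1:**
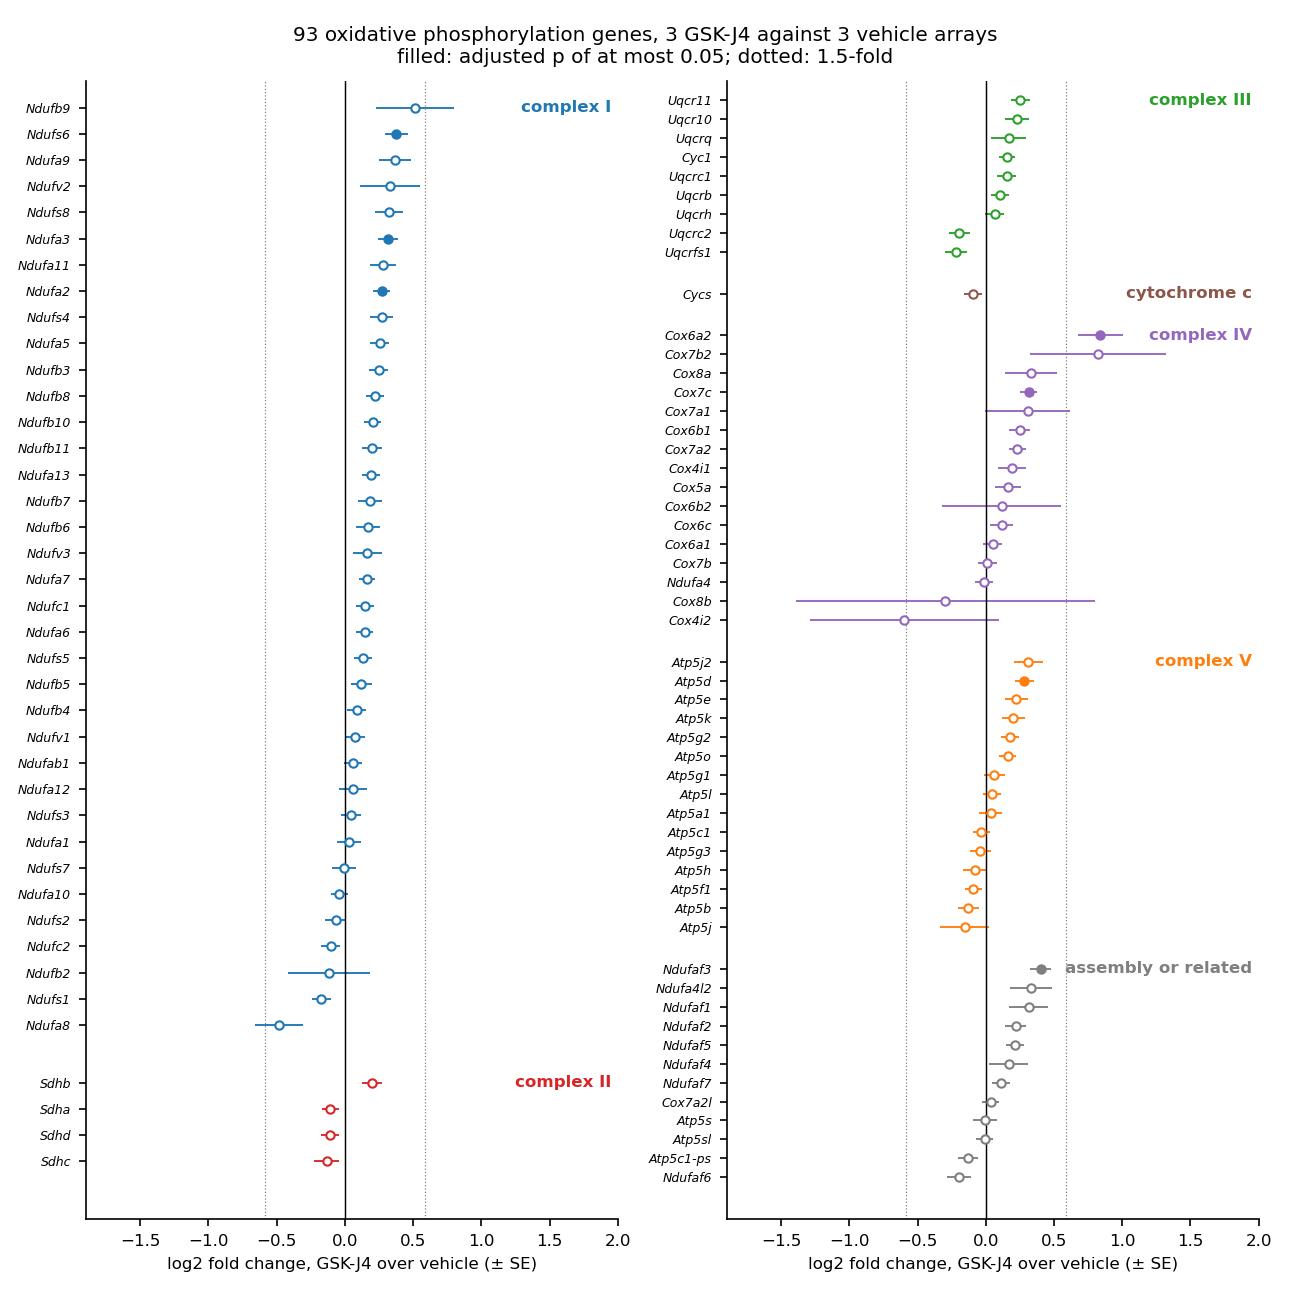
Log2 fold change (GSK-J4 over vehicle, 3 arrays each) of each of the 93 genes, ordered within its complex, with bars for the standard error. Filled points have an adjusted p of at most 0.05 (limma), and dotted lines mark 1.5-fold. Most points of complexes I, III and IV lie to the right of 0, and 3 of the 4 of complex II to the left.

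The scaling of the arrays decided how many genes passed. When each array was instead scaled by its 75th percentile, 68 of the 93 genes passed upward and 0 downward, against 18.8% and 8.98% of all genes, 88 (94.6%) were above 0 against 59.4%, and the median was 0.49 against 0.09. The same scaling moved genes of bright probes in general. Among the 1345 genes with a mean log2 signal of 14 or more, which hold 61 of the 93 members, the median of all genes was 0.03 after quantile normalisation and 0.44 after 75th percentile scaling. The members in that class had medians of 0.15 and 0.57. Beside bright genes as a whole they were therefore higher by a similar small amount under both scalings. Among all calls on the array, the share that was upward went from 53.7% to 67.7%.

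**Figure D2:**
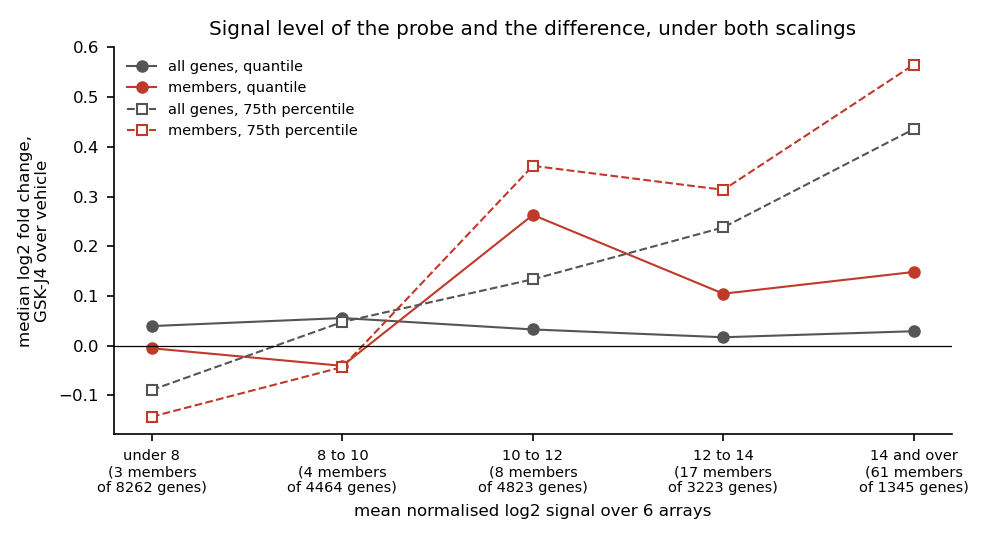
Median log2 fold change (GSK-J4 over vehicle) of all genes (grey) and of the member genes (red) in 5 classes of mean normalised log2 signal, after quantile normalisation (filled) and 75th percentile scaling (open). After quantile normalisation all genes stay near 0 in every class, and after 75th percentile scaling they climb to 0.44 in the brightest class.

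Complex I was the largest group and held 3 of the calls. Ndufs6, an accessory subunit of its peripheral arm, read 15.16, 14.95 and 14.94 on the vehicle arrays and 15.46, 15.35 and 15.36 on the GSK-J4 arrays (normalised log2 signal). Ndufa3, an accessory subunit, read 15.17, 15.03 and 15.04 against 15.37, 15.35 and 15.47. Ndufa2, also accessory, read 14.63, 14.73 and 14.68 against 14.95, 14.94 and 14.96. In all 3 genes every GSK-J4 array was above every vehicle array, by amounts that are small on this scale. Ndufs6 rose by 0.38 ± 0.0872 (SE, log2; adjusted p = 0.0401, limma), Ndufa3 by 0.32 ± 0.0742 (0.0417) and Ndufa2 by 0.27 ± 0.0627 (0.0409).

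Of the 36 complex I genes, 29 (80.6%) were above 0 and 19 (52.8%) had groups that did not overlap upward, with a median of 0.17. Of all genes 54.2% and 25.5% did so. With the G and C share of the probe removed, as described with the probes, 25 of the 36 were above 0 and the median was 0.079. The groups then did not overlap upward in 14 (38.9%), against 21.9% of all genes. The 29 accessory subunits had a median of 0.17 and the 7 core subunits, which carry the flavin and iron-sulfur centres or bind beside them, one of 0.05. The difference between these medians was not tested. Among the core subunits, Ndufv1, which binds NADH, was at 0.08 (adjusted p = 0.477, limma), Ndufs7 at -0.00 and Ndufs1, the largest, at -0.17 (0.131). Ndufs1 read 14.21, 14.21 and 14.25 with vehicle and at most 14.14 on any GSK-J4 array. Ndufab1, the mitochondrial acyl carrier protein, was at 0.06. The extremes did not pass. Ndufb9 (0.51 ± 0.288; adjusted p = 0.253) read 14.29 on vehicle replicate 3 against 15.23 and 15.28 on the other vehicle arrays, and was at 0.19 without that array. Ndufa8 (-0.48 ± 0.177; 0.111) read 12.45, 12.01 and 11.92 against 11.87, 11.53 and 11.53, and was at -0.32 without vehicle replicate 1.

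Complex II is the only one that is also an enzyme of the tricarboxylic acid cycle, and it has no subunit encoded in mitochondrial DNA. Its 4 genes had a median of -0.11, and 0 passed the test. Sdhb, the iron-sulfur subunit, read 14.56, 14.47 and 14.40 with vehicle and 14.72, 14.62 and 14.68 with GSK-J4 (0.20 ± 0.0726; adjusted p = 0.108, limma). The other 3 had lower values on every GSK-J4 array, as did 20% of all genes. Sdha, the flavoprotein, read 13.70, 13.68 and 13.72 against 13.63, 13.53 and 13.61 (-0.11). The membrane anchors Sdhc and Sdhd were at -0.13 and -0.11, with adjusted p of 0.331 and 0.292, and Sdhc was at -0.06 without vehicle replicate 1. After 75th percentile scaling the median of complex II was 0.17, so its sign changed with the scaling. With the G and C share of the probe removed, as described with the probes, the median was -0.04 and 2 of 4 genes were above 0. Sdha was then at 0.04 and Sdhd at -0.11, both with overlapping groups. Sdhb (0.38) and Sdhc (-0.37) did not overlap.

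Complex III had a median of 0.15 over 9 genes, none of which passed. Uqcr11 and Uqcr10, small subunits, were at 0.25 ± 0.067 (adjusted p = 0.0541, limma) and 0.23, and Cyc1, the cytochrome c1 that passes electrons to cytochrome c, at 0.15 ± 0.0577 (0.117). The probe used for Cyc1 had no mapped position, and its other probe was at -0.14. Uqcrc1, a core subunit, was at 0.15 without overlap. Its partner Uqcrc2 (-0.19) and the Rieske iron-sulfur protein Uqcrfs1 (-0.22 ± 0.0782; 0.106) were lower on every GSK-J4 array. Uqcrfs1 read 13.67, 13.47 and 13.63 against 13.42, 13.35 and 13.35. Cycs, the mobile electron carrier cytochrome c, was at -0.10 ± 0.0684 with overlapping groups (0.358).

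Complex IV, the terminal oxidase, had a median of 0.18. Its 10 subunits other than the tissue isoforms, called general here, had 9 values above 0 and none without overlap below. Cox7c, a small subunit of the complex, read 14.30, 14.31 and 14.34 on the vehicle arrays and 14.58, 14.62 and 14.69 on the GSK-J4 arrays and rose by 0.31 ± 0.0636 (adjusted p = 0.031, limma). This value belongs to 1 of its 2 probes and does not hold for the other, as described with the probes. Cox7a2, the liver-type partner of Cox7a1, was at 0.23 ± 0.0604 (0.0532), Cox6b1 at 0.25 (0.0829), Cox4i1 at 0.19 (0.244), Cox5a at 0.16 (0.268), Cox6c at 0.12 (0.363) and Cox6a1 at 0.05 (0.629). Single arrays moved these: Cox4i1 was at 0.12 without GSK-J4 replicate 2, Cox5a at 0.08 and Cox6a1 at 0.01 without vehicle replicate 3, and Cox6c at 0.05 without vehicle replicate 2. Cox8a, the general form of subunit VIII, read 15.76 on vehicle replicate 1 and 16.41 to 16.57 on the other 5 arrays, and moved from 0.33 to 0.11 without it. Ndufa4, named for complex I but a subunit of complex IV, was at -0.01.

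The tissue isoforms of complex IV were the most variable members, with a median SE of 0.47 over 6 genes against 0.08 for the general subunits. Cox6a2, the heart and skeletal muscle form of subunit VIa, read 10.69, 10.66 and 10.48 with vehicle and 11.77, 11.17 and 11.42 with GSK-J4. It rose 1.79-fold (0.84 ± 0.166, adjusted p = 0.0295, limma), the largest change of any member. Its ubiquitous partner Cox6a1, the brightest member, read 17.39 to 17.54 with vehicle and 17.51 to 17.54 with GSK-J4. Quantile normalisation gave Cox6a1 equal values on replicate 1 of both groups (17.54) and on replicate 2 of both (17.51). After 75th percentile scaling Cox6a1 was at 0.70 (adjusted p = 0.00817, limma) and Cox6a2 at 0.94 (0.0161). Some genes of striated muscle were also higher on the GSK-J4 arrays. Of 9 such markers 8 were kept, all but Ckm, with 6 above 0, 2 below and 3 without overlap upward (25.5% of all genes). Their summed linear signal was 697 to 735 with vehicle and 853 to 1143 with GSK-J4. Of these, Tnnt3 (0.57; adjusted p = 0.0146, limma) and Myh1 (1.12; 0.0496) rose, Mb (-0.53) and Myl1 (-0.01) were below 0, and the other 4 did not pass. The part of these markers in the Cox6a2 value was not tested.

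Other isoforms differed on single arrays. Cox8b, the muscle form of subunit VIII, read 11.33 on vehicle replicate 1, 7.54 and 7.51 on the other vehicle arrays, and 9.18, 8.14 and 8.16 with GSK-J4. Vehicle replicate 1 is the array with the high choroid plexus signal, and GSK-J4 replicate 1, the highest of its group for Cox8b, also had the highest choroid plexus signal of its group at 12750. GSK-J4 replicate 2, with a sum of 3121, read 8.14 for Cox8b, above the 7.54 of vehicle replicate 2 with a sum of 3360. The part of the choroid plexus signal in these values was not tested. With all arrays Cox8b was at -0.30 ± 1.1, and without vehicle replicate 1 it was at 0.97 (adjusted p = 0.154). Cox7a1 read 10.87 on that array against 9.84 and 9.81, and moved from 0.31 to 0.66 (0.0672) without it. Cox6b2, the testis form of subunit VIb, read 9.87 there against 8.24 and 8.49, and moved from 0.12 to 0.62 (0.0843). None of the 3 passed with or without the array. Cox4i2, the oxygen-regulated form of subunit IV, read 5.09 on GSK-J4 replicate 3 and 7.26 to 7.57 on the other 5 arrays, which set its value of -0.60; it was at 0.23 without that array. Cox7b2, a dim probe, read 4.39 on vehicle replicate 1 against 6.05 and 6.06, and moved from 0.82 ± 0.496 (0.282) to 0.27 without that array. Ndufa4l2, a paralogue of Ndufa4, read 7.62 there against 8.13 and 8.07, and moved from 0.33 (0.18) to 0.17.

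**Figure D3:**
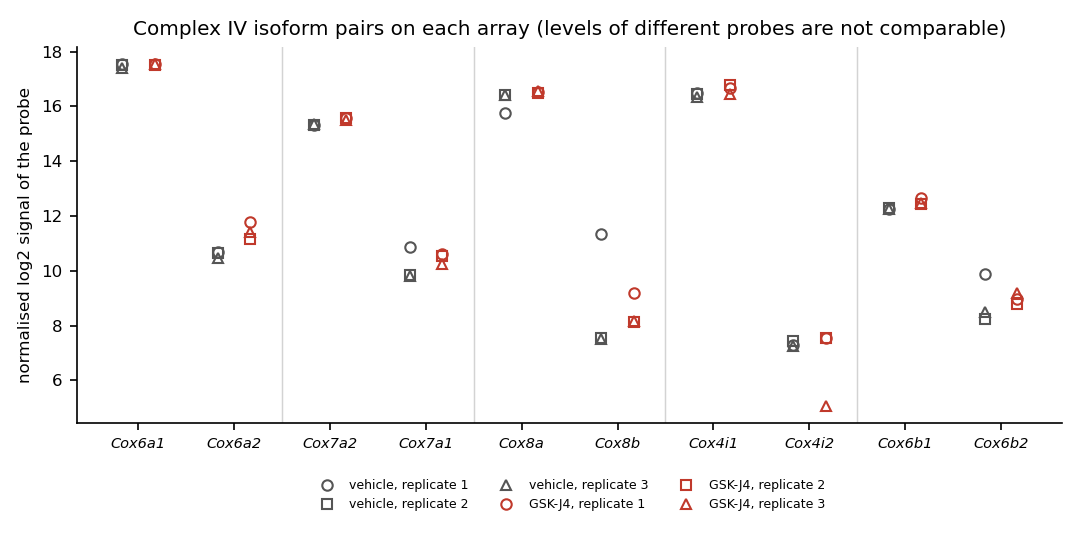
Normalised log2 signal of 5 pairs of complex IV isoforms on each array, vehicle in grey and GSK-J4 in red, with a marker for each replicate number. The general forms vary little apart from Cox8a, which is low on vehicle replicate 1, Cox6a2 is higher on all GSK-J4 arrays, Cox7a1, Cox8b and Cox6b2 are highest on vehicle replicate 1, and Cox4i2 is lowest on GSK-J4 replicate 3.

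Complex V had a median of 0.04 over 15 genes, near that of all genes. In 6 (40%) the groups did not overlap upward and in 2 downward, against 25.5% and 20% of all genes. With the G and C share of the probe removed, 3 (20%) did not overlap upward, against 21.9%. Atp5d, the delta subunit of the F1 stalk, read 13.97, 13.90 and 13.90 with vehicle and 14.29, 14.13 and 14.20 with GSK-J4 and rose by 0.28 ± 0.0711 (adjusted p = 0.0491, limma). The catalytic beta subunit Atp5b read 16.03, 16.07 and 16.06 against 16.02, 15.93 and 15.83 (-0.13; 0.264), and the alpha subunit Atp5a1 was at 0.04 (0.778). Within the F1 head values lay on both sides of 0, although Atp5b was at 0.37 after 75th percentile scaling. In the membrane sector and stalks, Atp5j2 had the highest value (0.31 ± 0.105; 0.093) and Atp5j the lowest (-0.16 ± 0.18; 0.565), the latter with 13.74 on GSK-J4 replicate 3 against 14.39 and 14.33, and at 0.05 without that array. Atp5o, which joins the stalk to the head, was at 0.16 (0.124). Atp5g1, Atp5g2 and Atp5g3, which encode the same c-ring protein with different import sequences, were at 0.06, 0.18 and -0.04, with 0 of 3 past the test.

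Among the assembly factors of complex I, Ndufaf3 read 10.71, 10.73 and 10.68 with vehicle and 11.18, 11.15 and 10.98 with GSK-J4, and rose by 0.40 ± 0.0779 (adjusted p = 0.0284, limma). Ndufaf1, Ndufaf2 and Ndufaf5 were higher on all GSK-J4 arrays without passing, and Ndufaf1 moved from 0.31 to 0.17 without vehicle replicate 1. Of the 12 assembly factors or related proteins 6 (50%) did not overlap upward, against 25.5% of all genes. With the G and C share of the probe removed, Ndufaf2 (0.14) and Ndufaf5 (-0.00) had overlapping groups and Ndufaf1 (0.46) did not. Ndufaf6 had the lowest value (-0.20, adjusted p = 0.166, limma). The assembly factors that the name rule leaves out, such as the Coa, Sco and Uqcc proteins, gave 6 of 36 genes up and 2 down, against 9% and 7.77% of all genes, with a median of 0.09. The 5 with the smallest p were Coa7 (0.53), Coa5 (0.55), Uqcc3 (0.46), Cox15 (-0.47), which makes heme a for complex IV, and Timmdc1 (0.61), a complex I assembly factor. After 75th percentile scaling 14 of the 36 rose and 2 fell, against 18.8% and 8.98% of all genes. With the G and C share removed 4 rose and 1 fell, against 4.62% and 5.67%. Coa7 (0.45), Coa5 (0.58) and Timmdc1 (0.53) then still passed. Uqcc3 (0.22, adjusted p = 0.0887, limma) and Cox15 (-0.18, 0.157) did not.

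**Figure D4:**
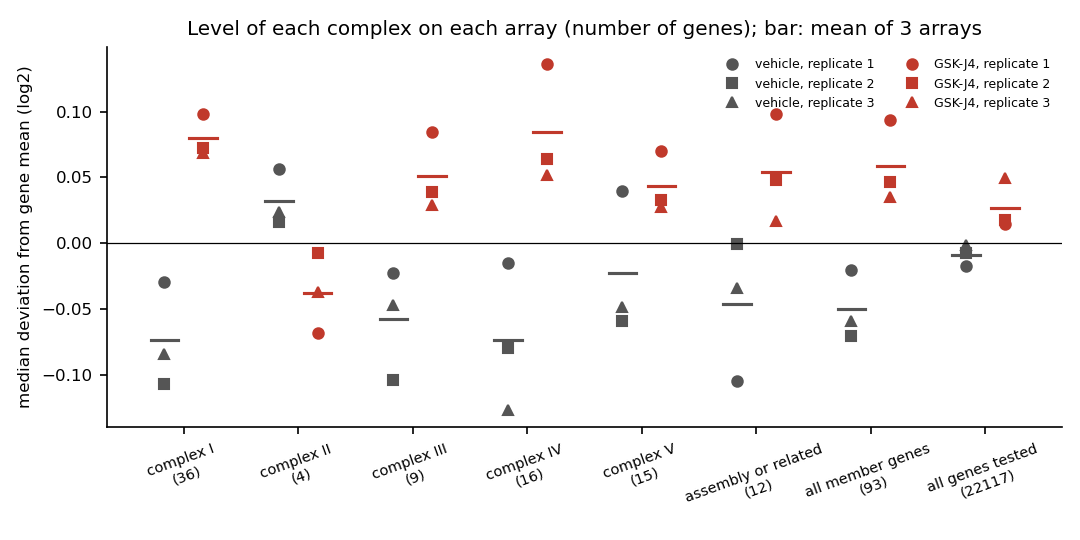
Median over the genes of each complex of the deviation of log2 signal from the gene's mean over 6 arrays, for each vehicle (grey) and GSK-J4 (red) array, with bars for the group means. The GSK-J4 arrays lie above the vehicle arrays for complexes I, III and IV and below them for complex II, and vehicle replicate 1 lies among the GSK-J4 arrays for complex V.

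In this fit the other genes of energy metabolism had medians nearer to 0 than the 0.15 of all members. The counts of each list stand beside 9% of all genes tested that rose and 7.77% that fell. Of 18 genes of the tricarboxylic acid cycle and pyruvate dehydrogenase, 0 rose and 2 fell, with a median of -0.07. These were Dld (-0.42; adjusted p = 0.03, limma), the dihydrolipoamide dehydrogenase shared by several complexes, and Sucla2 (-0.31; 0.0366), a subunit of succinyl-CoA ligase. Of 20 genes of glycolysis and lactate transport 0 passed (median 0.06), and of 17 mitochondrial carriers, channels and uncoupling proteins 0 passed (median -0.03). Of 21 regulators of mitochondrial genes 0 rose and 1 fell, with a median of -0.06. That was Gabpa (-0.95 ± 0.212; 0.0377), the DNA-binding subunit of GABP, which read 8.84, 8.95 and 9.19 with vehicle and 8.09, 8.41 and 7.64 with GSK-J4. The coactivator Ppargc1a was at -0.48 (0.112), Nrf1 at 0.07, Tfam at -0.06 and Esrra at -0.17. After 75th percentile scaling the medians were 0.16 for the tricarboxylic acid cycle, 0.40 for glycolysis, 0.17 for the carriers and -0.01 for the regulators, so that 2 of the 4 changed sign. Gabpa still fell (adjusted p = 0.023, limma), with Dld at -0.28 (0.075) and Sucla2 at -0.12 (0.236). With the G and C share of the probe removed, as described with the probes, Gabpa was at -0.62 (0.102), Dld at -0.28 (0.102) and Sucla2 at -0.17 (0.164), so that none passed, and the medians of glycolysis (-0.08) and of the carriers (0.04) changed sign. The medians of glycolysis and of the tricarboxylic acid cycle (-0.07) were then about as far from 0 as the members' 0.07.

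The 11 mitochondrially encoded genes on the array had a median of -0.14, with 9 of 11 below 0, and after 75th percentile scaling one of 0.17, with 9 of 11 above 0. ND4, a complex I subunit, fell by 0.35 ± 0.059 (adjusted p = 0.0217, limma), and ND6, transcribed from the opposite strand of mitochondrial DNA, rose by 0.55 ± 0.116 (0.0341); after 75th percentile scaling ND4 was at 0.08 (0.382) and ND6 at 0.50 (0.0309). ND4 read 15.33 on average with vehicle and 14.95, 14.98 and 15.00 with GSK-J4. COX2 read 12.69 on GSK-J4 replicate 2 against 15.86 and 15.75, and CYTB read 15.16 on GSK-J4 replicate 3 against 16.65 and 16.44, beside values of -0.88 and -0.54 for the difference between groups, and COX2 also read 14.68 on vehicle replicate 3. The probes of these genes held 35% to 36.7% G and C. With that share removed, their median was -0.04 with 5 of 11 above 0, ND4 was at -0.21 (0.0705) and no longer passed, and ND6 was at 0.69 (0.025).

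The base composition of the probe moved with the difference. Across the 93 members the log2 fold change and the G and C share of the 60-base probe correlated at r = 0.238 (rho = 0.361), and across all genes tested at 0.305 (0.356); genes are not independent replicates. Members with probes of at most 36.7% G and C had a median of 0.02 (24 genes), against -0.11 for all genes with such probes. Those with 45% or more had a median of 0.19 (48 genes), against 0.16 for all genes. All 7 calls were in this class, 14.6% of its members against 15.5% of all its genes. With the G and C share removed by a local regression within each array, 62 members (66.7%) were above 0 against 52.2% of all genes, the median was 0.07, and 33 (35.5%) did not overlap upward against 21.9%. None of the 7 genes called before passed: Cox6a2 was at 0.60 (adjusted p = 0.0693, limma), Ndufaf3 at 0.20, Ndufa3 and Ndufs6 at 0.18, Cox7c at 0.08, Ndufa2 at 0.07 and Atp5d at 0.05 (0.626). The only call then was Sdhb at 0.38, 1.08% of members, while 4.62% of all genes rose and 5.67% fell. The median of complex III was -0.03.

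Probes of the same gene followed this in part. Between the highest and the lowest probe of the 36 genes with several, the highest held more G and C in 18, less in 10 and as much in 8. Of 139 member probes 8 rose and 2 fell in the test over all 34443 kept probes, against 8.38% and 8.4% of all probes, and 20 of these 36 genes had probes of opposite sign. Among the 20 were Cyc1 (0.15 for the probe used and -0.14 for the other), Cycs (-0.10 and 0.23) and Atp5a1 (0.04 and -0.52). Atp5o (0.16 and -0.43) and Ndufaf6 (-0.20 and 0.15) were others. The widest gap was in Cox7c, whose stretches are shown because the call of the gene depends on the choice. These are the first 30 bases of each 60-base probe as the files give it, 5′ to 3′, with G and C in capitals; both lie on the minus strand of mm9, at chr13:86184486-86185363 and chr13:86186301-86186360, and whether they lie in coding or untranslated exon was not looked up here.
Cox7c, 28.3% G and C: aaataaGGatatttaattCatCCCtttaaC
Cox7c, 55% G and C: tGtaGaaaGGaGaGttaGGtGGtaCGGCCa

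The AT-rich Cox7c probe read 10.43, 11.82 and 11.56 with vehicle and 9.63, 11.40 and 9.16 with GSK-J4, a difference of -1.20 ± 0.669 with overlapping groups. The GC-rich one gave the rise of 0.31. Atp5f1, subunit b of the peripheral stalk, had 3 probes whose composition hardly differed, on the minus strand of mm9 at chr3:105745871-105745930, chr3:105745973-105746655 and chr3:105761646-105761705, shown in the same way because their values part without it.
Atp5f1, 41.7% G and C: aaGGCtCaaGCtCaGCCaattatGtGaata
Atp5f1, 43.3% G and C, middle position: atGataGaCtGGGtaGaaaaGCatGtGGtG
Atp5f1, 43.3% G and C, last position: GCCaGCttGCataCtCattCGGaCGtttGt

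The first of these, used for the gene, was at -0.09 with an SE of 0.0671. The probe at the middle position was at -0.76 ± 0.778, with 11.66 on GSK-J4 replicate 3 against 14.45 and 14.37 on the other GSK-J4 arrays. The last was dim, at 4.14, 4.20 and 4.36 with vehicle, and rose by 0.73 ± 0.103 (adjusted p = 0.0175, limma over probes). The 2 probes that fell were second records of Ndufa10 (-0.75; 0.0327) and Atp5g1 (-0.64; 0.0268), whose brightest probes were at -0.04 and 0.06. A second Ndufs1 probe was at -1.02 (0.114), in the direction of the first.

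**Figure D5:**
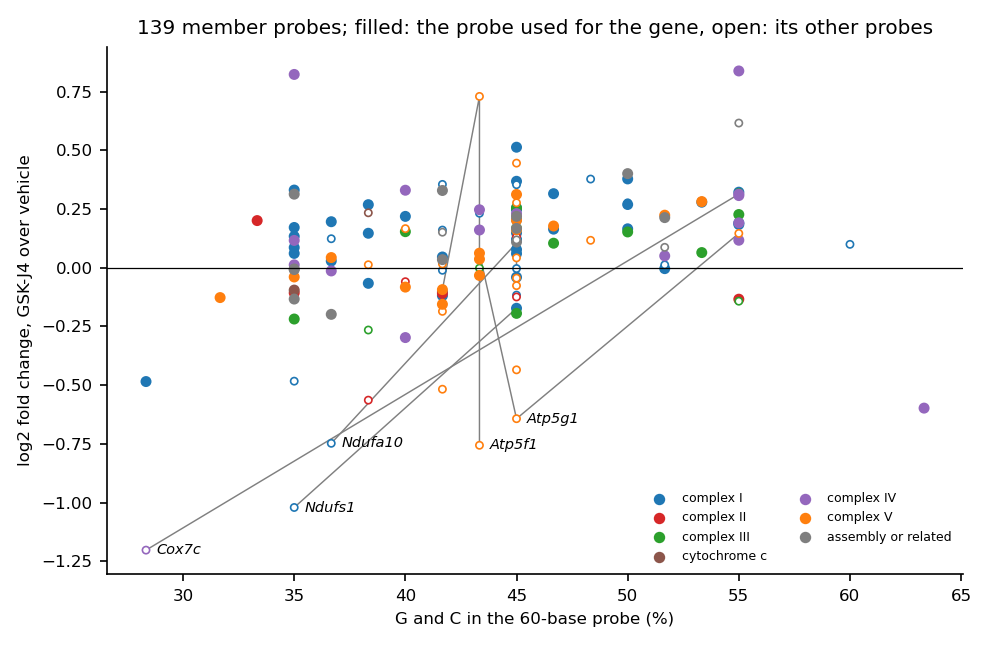
Log2 fold change (GSK-J4 over vehicle) of the 139 member probes against the share of G and C in the 60-base probe, coloured by complex, filled for the probe used for a gene and open for its other probes. Lines join the probes of 5 genes; those of Cox7c run from -1.20 at 28.3% to 0.31 at 55%.

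Nuclear respiratory factor 1 (NRF1) is a known activator of many of these genes, and its letters were counted in the promoters as a feature that the rule did not use. RefSeq promoters (GRCm38.p6, 250 bases before to 50 after the start) were matched for 76 of the 93 genes. The letters CGCANGCG, the centre of the NRF1 motif read on both strands, were present in 30 of 76 (39.5%) and in 9.22% of all 27025 genes with a promoter in the table (12.5% of protein-coding genes). The YY1 letters AAGATGGC were present in 11 (14.5%) against 3.19%, the ETS letters CCGGAAGT, bound by GABP among others, in 5 (6.58%) against 4.31%, and the oestrogen-related receptor letters TCAAGGTCA in 2 (2.63%) against 0.466%. No motif of the 4 contains another. Windows of 30 bases upstream of the start, on the strand of the gene with the NRF1 letters in capitals, are given for a few members of different complexes.
Ndufa11, chr17:56717692-56717721, plus strand: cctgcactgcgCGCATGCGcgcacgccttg
Ndufa8, chr2:36049349-36049378, minus strand: ctagagcagtgCGCTTGCGcgtcgctggag
Sdhd, chr9:50603909-50603938, minus strand: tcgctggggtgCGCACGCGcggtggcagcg
Cycs, chr6:50566612-50566641, minus strand: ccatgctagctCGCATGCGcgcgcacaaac
Cox6a1, chr5:115349101-115349130, minus strand: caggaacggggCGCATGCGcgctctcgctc
Atp5k, chr5:108434430-108434459, minus strand: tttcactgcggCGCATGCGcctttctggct

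These 6 genes, Ndufa11, Ndufa8, Sdhd, Cycs, Cox6a1 and Atp5k, were at 0.28, -0.48, -0.11, -0.10, 0.05 and 0.20 (log2 fold change). The median difference was 0.15 (log2) in members with the NRF1 letters and 0.16 in the other 46, and 21 of 30 against 36 of 46 were above 0. None of the 4 letter strings was present in the 4 tissue isoforms with a promoter in the table. A match is a string of letters and was not examined for binding.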

How the data were processed

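The members, pathway lists and motifs were chosen with earlier results of these data known. The authors scanned the arrays and deposited, per the file headers, background-corrected intensity values of Agilent Feature Extraction 10.7.1.1. They also deposited a log2 table that the methods describe as quantile normalised. The log2 intensities were read with limma 3.58.1 in R 4.3.3. Controls and outlier-flagged spots were dropped, repeated spots averaged and arrays quantile normalised. A probe was kept (34443 in all) if every array of either group had it well above background, and each of 22117 gene names was represented by its brightest kept probe. lmFit and eBayes were applied two-sided with no covariate, with Benjamini-Hochberg adjustment over all genes, after the functions were tested on simulated data. A fold is a difference of group means. The exact permutation test of 3 arrays against 3 has 20 orders and cannot go below p = 0.1, which all 7 called genes had. The number of arrays limits the precision. Named were genes past the threshold, the extremes of each complex, subunits and isoform pairs from a written list, and genes whose probes disagreed; others (such as Uqcr10, Uqcrc2, Ppargc1a and the promoter examples) were chosen after their values were seen. Probe coordinates are those of the files (mm9).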

Additional observations from a re-analysis of the deposited data

How the results depend on the processing

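Of the 7 genes that rose, 7 remained with the deposited log2 table, with array weights (10 calls) and with probes kept only if above background on all arrays (10 calls), and 5 with normexp (10 calls). The 10 calls were 10.8% of members each time, against 9.75%, 11.3% and 9.24% of all genes. After 75th percentile scaling 68 genes (73.1%, against 18.8% of all genes) and 80 probes rose, 28 genes passed the 1.5-fold thresholds, 42 genes of related pathways rose, and the medians were 0.49 over all members and 0.51, 0.17, 0.50, 0.59 and 0.51 for complexes I to V. Atp5b (0.37), Atp5f1 (0.32), Atp5g3 (0.38), Cycs (0.28), Ndufa4 (0.31) and Ndufs7 (0.43) then rose with the opposite sign. With the G and C correction 1 gene (1.08%, against 4.62% of all genes) and 2 probes rose. Of the related genes, 4 assembly factors and the mitochondrially encoded ND6 rose, and 1 assembly factor fell. The medians were then 0.070 over all members, and 0.079, -0.039, -0.032 and 0.098 for complexes I to IV. They were the same in the replicate block with GC correction. With no filter, 2 genes (2.15%, against 3.24% of all genes) and 3 probes rose, and 1 probe fell. With trend and robust settings 19 genes (20.4%, against 10.6%) and 22 probes rose, with normexp 15 probes, with array weights 15 probes rose and 4 fell. The methods' t-test without equal variance gave 0 genes and 0 probes in either direction after adjustment, and of related genes 0 up and 1 down; with equal variance it gave 12 genes (12.9%, against 6.39%), and 1 probe fell. With the mean of a gene's probes, 1 gene was lower by 1.5-fold, Cox7c was at -0.44, and the medians were 0.11 over all members, 0.065 for complex III and 0.0013 for complex V. When a gene counted through any probe, 2 members fell at the adjusted threshold, 3 were higher and 3 lower by 1.5-fold, and 13 related genes rose and 13 fell. The cause of these differences was not tested.

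Leaving out any 1 vehicle array left 0 member calls and any 1 GSK-J4 array 1 call, Cox6a2 without GSK-J4 replicate 1 or 2 and Ndufaf3 without replicate 3. Over the 6 omissions, 0 to 1 genes and 0 to 3 probes rose, 0 genes and 0 to 2 probes fell, 1 to 4 genes were higher and 0 to 1 lower by 1.5-fold, and 0 to 5 related genes rose and 0 to 4 fell. Across all genes the calls numbered 18 up and 29 down without vehicle replicate 1, 19 and 46 without replicate 2, and 1 and 11 without replicate 3. They numbered 664 and 762 without GSK-J4 replicate 1, 1382 and 1200 without replicate 2, and 911 and 1260 without replicate 3. The medians ranged from 0.12 to 0.15 over all members, 0.13 to 0.18 for complex I, -0.12 to -0.080 for II, 0.082 to 0.16 for III, 0.14 to 0.24 for IV and 0.02 to 0.08 for V. Same-numbered arrays correlated at only 0.0142, 0.035 and 0.0823 in their deviations, so the numbers were not taken as pairs; with the replicate block 0 members and 0 related genes passed in either direction, with or without the G and C correction, as did 0 of all genes.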
